A study of Mus musculus with 9 samples.

Results

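Lumbar motor neurons from segment L5, which innervate limb muscle, were compared with 2 pools that are relatively spared in amyotrophic lateral sclerosis (ALS). The spared pools were the oculomotor nucleus of the midbrain (OMN), which moves the eyes, and the dorsolateral nucleus (DL) of the L6 level, which innervates pelvic sphincter muscle. The comparison used all 9 arrays of the series, 3 per pool, and all 18193 named genes. It set L5 against the mean of OMN and DL with equal weight for each pool, and the arrays were chosen by their titles alone. All pools came from wild-type male C57BL/6J mice at postnatal day 7 with no treatment. About 200 motor neurons per pool were cut by laser from cresyl violet stained frozen sections of each of 3 animals. No group carried a disease mutation, so the difference is one between healthy young pools.

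In ALS, spinal motor neurons that drive limb muscle degenerate, whereas eye movement and sphincter control are usually kept until late. Limb motor neurons include large, fast-fatigable units that are lost early, and oculomotor neurons are built for sustained high-rate firing. The pools also differ in developmental origin, since L5 and DL arise in the spinal cord and OMN in the midbrain. A gene can therefore differ from the mean of the spared pools because of only 1 of them, and each pool is given separately here.

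The median array intensity ranged from 26.4 to 35.5, lowest in DL, and 67.0% to 71.5% of genes exceeded 18.3, the highest value of the unspiked bacterial control probe sets, which served as the noise level. The 3' to 5' ratio of Gapdh, a sign of RNA integrity, was 3.27 and 3.75 on DL arrays 1 and 3 and 2.33 to 2.67 on the other 7, so counts are also given without those 2 arrays. Transporter genes of cholinergic neurons checked the label of the cells. Slc5a7, the choline transporter, read 4979, 3827 and 3415 in L5, 4188, 4192 and 3942 in OMN and 2864, 3351 and 3475 in DL. Slc18a3, which loads acetylcholine into vesicles, read 2294, 3574 and 2617 in L5, 2755, 1997 and 2682 in OMN and 1657, 2556 and 774 in DL. Both were bright in every pool, and neither differed between L5 and the spared pools (adjusted p = 0.74 and 0.455). Chat, which makes acetylcholine, read 4.3, 1.2 and 12.8 in L5, 24.5, 20.5 and 22 in OMN and 16.7, 21.8 and 8.4 in DL on its only probe set, near or under the noise level in all pools, so that this defining marker did not check the label.

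The comparison found 398 of the 18193 genes (2.19%) at an adjusted p under 0.05, with 194 higher in L5 (1.07%) and 204 lower (1.12%). Among the higher genes the median log2 difference was 1.46 and the largest 4.83. Among the lower genes the median was 1.43 in size and the largest 4.31. Differences in log2 are of log2(intensity + 16), which understates the change of dim genes. For 159 of the 194 higher genes (82.0%) and 168 of the 204 lower genes (82.4%), all 3 L5 arrays lay outside the range of the 6 others. Over all genes, 1128 (6.2%) had every L5 array above the others and 787 (4.33%) had every L5 array below. In the other 71 called genes the L5 arrays overlapped at least 1 spared pool, and OMN made the larger difference in 25 of the 35 higher and 22 of the 36 lower ones. All 398 genes kept their sign when any 1 array was left out, but only 25 kept the call under every such omission, and 36, 36 and 37 genes were called without L5 array 1, 2 or 3. Without OMN arrays 1, 2 or 3, 139, 125 and 139 genes were called, and without DL arrays 1, 2 or 3, 239, 309 and 261. Without both DL arrays 1 and 3, 52 higher and 35 lower genes were called, 68 of them among the 398.

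**Figure D1:**
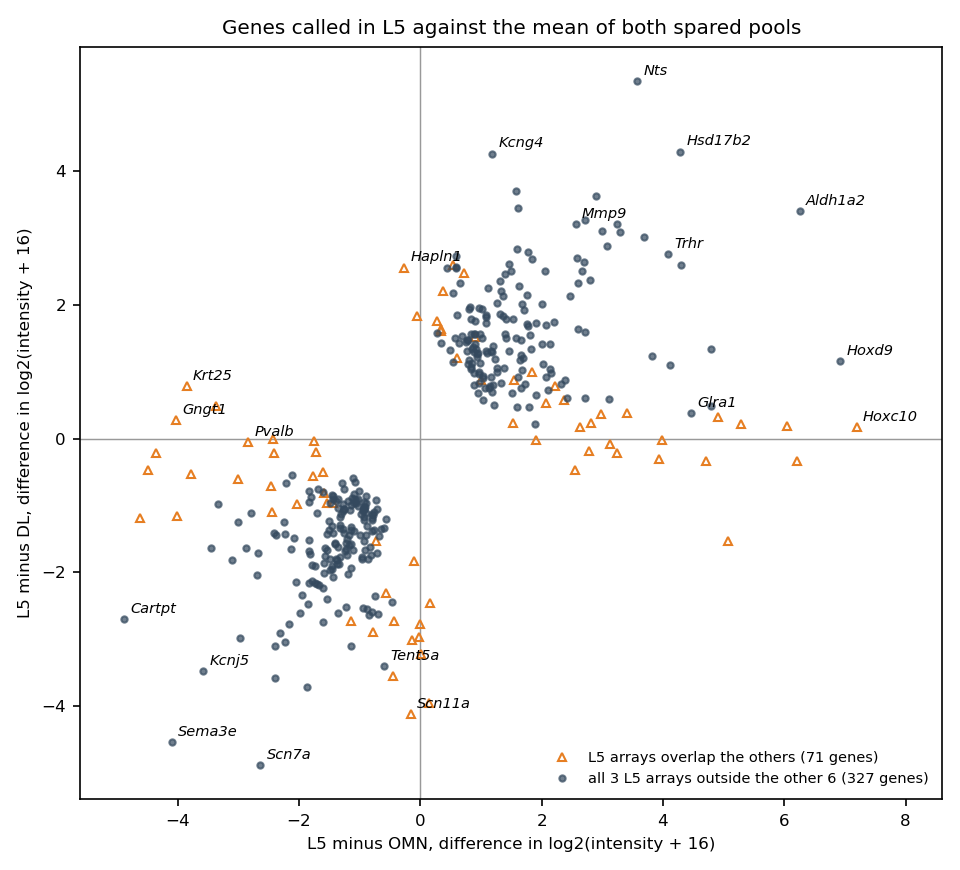
Each point is 1 of the 398 called genes, with the difference in log2(intensity + 16) between L5 and OMN on the x axis and between L5 and DL on the y axis. Circles are the 327 genes whose 3 L5 arrays all lay outside the 6 others and triangles the 71 that overlapped; Hoxc10 lies far right near 0 on the y axis, while Nts, Sema3e and Scn7a lie far from both axes. The L5 arrays enter both axes, so the 2 values of a gene are not independent.

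Called genes with separate arrays were ranked by their difference from the mean of both spared pools. The 10 furthest above that mean, in order of size, were Aldh1a2, Nts, Hsd17b2, Hoxd9, Ecrg4, Trhr, Arhgap9, Cited1, Egln3 and Il1f9. The 10 furthest below it were Sema3e, Cartpt, Scn7a, Kcnj5, Nptx2, Rnf152, Synpr, Ndnf, Gad2 and Syt1. Hoxd9 differed by 6.93 ± 0.25 from OMN but only 1.16 ± 0.25 from DL (adjusted p = 0.064). Nptx2 differed by -3.58 ± 0.58 from DL, while its -2.40 ± 0.58 from OMN did not pass (adjusted p = 0.103). The genes of ranks 11 to 30 were sorted by known function after they had been seen, so the classes are a description. Among these, the 20 higher genes held 4 receptors for peptides, 3 ion channels and 2 transcription regulators, and the 20 lower genes 0, 0 and 6. Among ranks 1 to 10 the same classes had 1, 0 and 2 higher genes and 0, 2 and 0 lower ones. The share of each class over all genes was not counted, so these counts describe the ranked genes only.

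**Figure D2:**
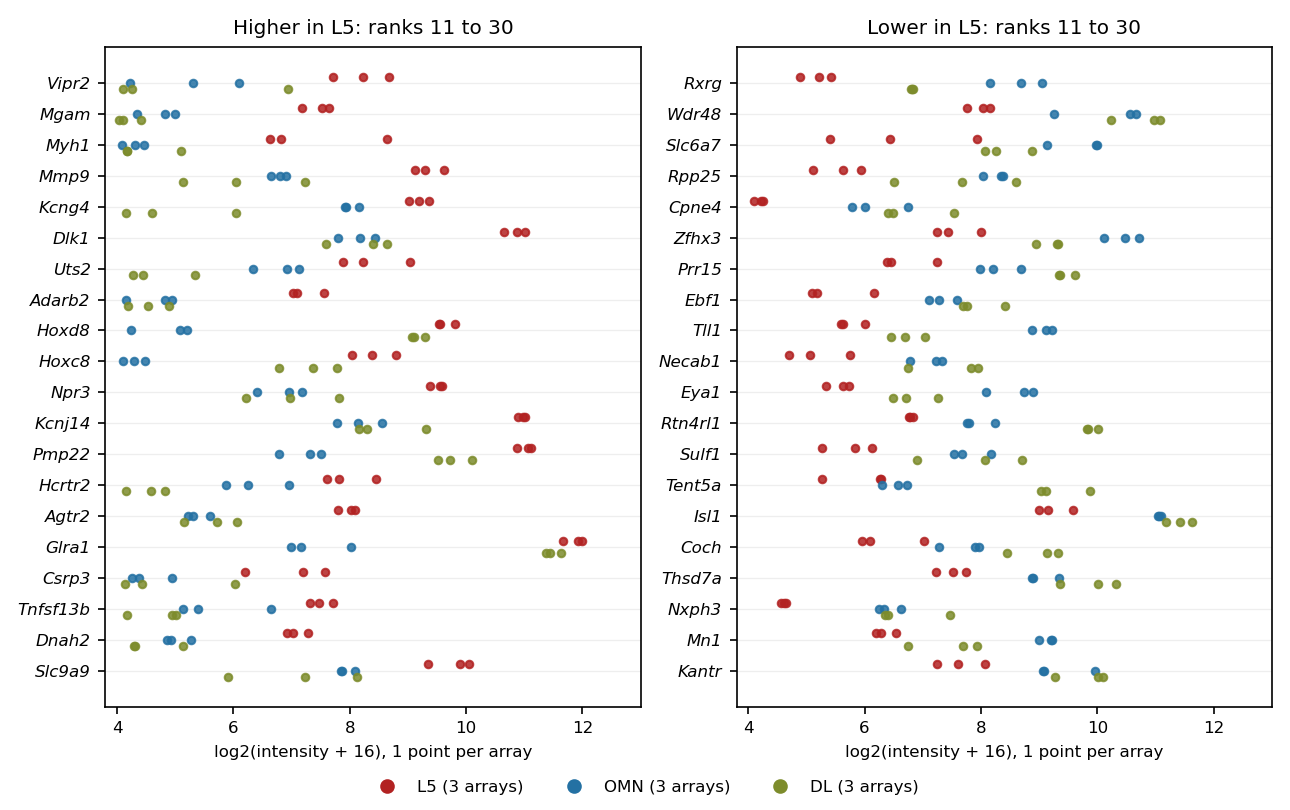
Each row is a gene of rank 11 to 30 by the size of the difference from the mean of both spared pools, higher in L5 on the left and lower on the right. Each point is log2(intensity + 16) on 1 array, red for L5, blue for OMN and green for DL. In every row the 3 L5 points lie on one side of the 6 others, as the ranking required, and in rows such as Hoxd8, Glra1 and Tent5a 1 spared pool lies close to L5.

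Among ranks 11 to 30, 4 receptors for neuropeptides and peptide hormones were higher in L5. These receptors couple signals released by descending and local neurons, or carried by blood, to slow changes in excitability. Vipr2, a receptor for vasoactive intestinal peptide and PACAP, is on the list of fast and alpha motor neuron markers. It read 392, 283 and 193 in L5, 2.6, 52.3 and 23.7 in OMN and 1.1, 106 and 3.1 in DL. All L5 arrays were above all others, although 1 OMN and 1 DL array were well above their pool mates, and the log2 difference was 3.05 ± 0.51 (adjusted p = 0.0344). Agtr2, the type 2 angiotensin II receptor, read 258, 206 and 245 in L5, 32.3, 23.7 and 21.3 in OMN and 50.7, 36.4 and 19.7 in DL, with the lowest L5 value 4.06 times the highest spared one (2.46 ± 0.19, adjusted p = 0.00323). Hcrtr2, an orexin receptor, read 334, 179.9 and 210 in L5, 42.4, 60.1 and 108 in OMN and 12.3, 8 and 1.9 in DL. OMN was intermediate, and DL lay under the noise level on every array (2.52 ± 0.31, adjusted p = 0.0132). Npr3, the clearance receptor for natriuretic peptides, read 734, 754 and 647 in L5, 109, 128 and 68.4 in OMN and 58, 208 and 109.9 in DL, with overlapping values in both spared pools (2.58 ± 0.29, adjusted p = 0.00895). Trhr, which binds thyrotropin-releasing hormone, had the largest difference of the group, 3.42 ± 0.30.

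The list of peptide and monoamine receptors, which does not hold Agtr2 or Npr3, had 47 measured genes. Its median log2 difference was -0.036, against 0.038 over all genes. In this list 5 genes were higher and 1 was lower in L5, against 1.07% and 1.12% of all genes. The higher ones were Trhr, Vipr2, Hcrtr2, Npy2r and Tacr3, and the rest of the list did not pass the test. Npy2r, a neuropeptide Y receptor, stood apart from OMN but overlapped DL, at 137, 91 and 146 in L5, 22.4, 15.9 and 12.7 in OMN and 83.8, 51.4 and 112 in DL. The lower gene was Htr3a, a serotonin-gated cation channel, at 563, 599.5 and 419 in L5, 2287, 2296 and 2318 in OMN and 846, 667 and 796 in DL. Its L5 and DL arrays were close, and the log2 difference was -2.11 ± 0.21 from OMN and -0.54 ± 0.21 from DL. Trhr and Agtr2 kept the call when any 1 array was left out. Vipr2 lost the call on leaving out any 1 L5 array or any 1 OMN array or DL array 1 or 3 (highest adjusted p = 0.169). Hcrtr2 lost the call on leaving out any 1 L5 array or OMN array 2 (highest adjusted p = 0.0995). Npr3 lost the call on leaving out any 1 L5 array (highest adjusted p = 0.0855). Npy2r lost the call on leaving out any 1 L5 array or any 1 OMN array or DL array 1 or 2 (highest adjusted p = 0.161). Htr3a lost the call on leaving out any 1 L5 array or any 1 OMN array (highest adjusted p = 0.118).

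Genes of neuropeptides were called in both directions. A list of precursors and their processing genes had 29 measured, with a median log2 difference of -0.006. In it 3 were higher in L5 (Nts, Uts2 and Sst) and 4 were lower, against 1.07% and 1.12% of all genes. The lower ones were the precursors Cartpt, Adcyap1 and Tac1 and the enzyme Pcsk1, which cuts precursors. Nts, the neurotensin precursor, read 4232, 3419 and 2587 in L5, 271, 289 and 239.5 in OMN and 29.1, 100.4 and 93 in DL. Cartpt, the precursor of the CART peptide, read 78.9, 78.4 and 84 in L5, 3207, 3930.3 and 1778 in OMN and 762, 596 and 497 in DL. The lowest L5 value of Nts was 8.95 times the highest spared one, and Cartpt was low on every L5 array and bright in both spared pools. The 250 bases upstream of each start site are shown because these genes had the largest peptide differences in each direction. They come from the RefSeq promoter table on build GRCm38.p6 and are written 5′ to 3′ on the gene's own strand. Capitals mark TGACG or its reverse complement CGTCA, the core of the cAMP response element, at chr10:102490419-102490668 for Nts and chr13:99900684-99900933 for Cartpt, both on the minus strand.
Nts: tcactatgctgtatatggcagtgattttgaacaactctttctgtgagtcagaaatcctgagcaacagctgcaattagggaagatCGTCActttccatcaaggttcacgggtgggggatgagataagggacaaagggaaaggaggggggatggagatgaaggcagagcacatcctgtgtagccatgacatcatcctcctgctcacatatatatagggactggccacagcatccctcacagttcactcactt
Cartpt: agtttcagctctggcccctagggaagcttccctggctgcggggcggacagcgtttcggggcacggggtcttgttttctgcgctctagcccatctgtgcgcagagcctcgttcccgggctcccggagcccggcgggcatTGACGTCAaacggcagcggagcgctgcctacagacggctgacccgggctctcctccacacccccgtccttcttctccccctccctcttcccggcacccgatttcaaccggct
The Nts window held 1 match, which began 166 bases before the start. The Cartpt window held 2 that overlap, TGACG and CGTCA, and the first began 112 bases before the start. It occurred on either strand in 17.8% of the 32851 promoter windows of the table. Among the 30 ranked genes in each direction, 8 of the 23 higher genes with a window held it in at least 1 window, and 5 of the 21 lower ones. A gene can have several windows, so these counts of genes are not comparable with the share of windows.

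Uts2, the precursor of the vasoactive peptide urotensin, read 282, 219.7 and 508 in L5, 125, 106 and 64.8 in OMN and 3.3, 5.7 and 24.3 in DL. L5 was highest, OMN intermediate and DL near the noise level, with log2 differences of 1.58 ± 0.39 from OMN (adjusted p = 0.105) and 3.70 ± 0.39 from DL (adjusted p = 0.0072). Adcyap1, the PACAP precursor, read 30.7, 18.4 and 43.4 in L5, 739, 632 and 795 in OMN and 267, 19.7 and 90 in DL. The difference came mostly from OMN, and 1 DL array lay within the L5 range. Nts and Cartpt kept the call when any 1 array was left out. Uts2 lost the call on leaving out any 1 L5 array (highest adjusted p = 0.106). Adcyap1 lost the call on leaving out any 1 L5 array or any 1 OMN array or DL array 3 (highest adjusted p = 0.184).

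Potassium channels set the resting potential and shape firing, and individual subunits moved strongly in both directions. Of 56 measured channel and subunit genes, 5 were higher (Kcng4, Kcnj14, Kcnk3, Kcna1 and Kcnip1) and 4 lower (Kcnj5, Kcnv1, Kcna6 and Kcnd3), with a median log2 difference of 0.032. Shares over all genes were 1.07% higher and 1.12% lower. Kcng4, a silent subunit that modifies Kv2 channels, read 567, 646 and 505 in L5, 229, 272 and 225 in OMN and 8.4, 50.1 and 1.8 in DL. It was low in DL and intermediate in OMN, with log2 differences of 1.19 ± 0.34 from OMN and 4.26 ± 0.34 from DL. Kcnj14, an inward rectifier found in motor neurons, read 2051, 1873 and 1995 in L5, 359, 205 and 267 in OMN and 299.8, 269 and 619.7 in DL, and the lowest L5 value was 3.02 times the highest spared one (2.58 ± 0.26, adjusted p = 0.00681). Kcnj5, a G protein-gated inward rectifier, ran the opposite way, at 0.6, 14 and 0.9 in L5, 193, 246 and 247 in OMN and 304, 268 and 109.8 in DL. It did not exceed the noise level on any L5 array and was at least 12.4-fold higher in OMN and 11.3-fold higher in DL. Kcnv1, another silent subunit, read 22.9, 26.2 and 24.4 in L5, 24, 28.4 and 21.8 in OMN and 275, 279 and 232 in DL, and its difference lay with DL (-2.78 ± 0.18, against -0.01 ± 0.18 from OMN). Kcnj5 kept the call when any 1 array was left out. Kcng4, Kcnj14 and Kcnv1 lost their calls on leaving out any 1 L5 array (highest adjusted p = 0.0855, 0.0751 and 0.0855).

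Among 34 sodium, calcium and HCN channel genes, 1 was higher in L5 and 3 were lower, against 1.07% and 1.12% of all genes. Scn7a, an atypical sodium channel, did not exceed the noise level on any L5 array and read 9.7, 1.9 and 3.1 in L5, 104, 104 and 131 in OMN and 856, 471 and 507 in DL. It was at least 6.12-fold higher in OMN and at least 32.2-fold higher in DL. Scn3a, a sodium channel alpha subunit of immature neurons, read 397, 379 and 498 in L5, 1239, 1318 and 1113 in OMN and 1190.4, 1110.4 and 1054 in DL, with both spared pools alike (-1.43 ± 0.17, adjusted p = 0.0119). Scn11a, known from pain-sensing neurons, read 26.4, 14.4 and 18.8 in L5, 49.3, 19.4 and 10.6 in OMN and 609, 714 and 503 in DL, and its difference lay with DL (-4.12 ± 0.28, against -0.15 ± 0.28 from OMN). Cacng5, an auxiliary subunit of AMPA receptors, was the higher gene (1.59 ± 0.29, adjusted p = 0.042), with DL values of 606, 1099 and 373 against 1187, 1474 and 1290.3 in L5. Scn7a kept the call when any 1 array was left out. Scn3a and Scn11a lost their calls on leaving out any 1 L5 array (highest adjusted p = 0.107 and 0.0909). Cacng5 lost the call on leaving out any 1 L5 array or any 1 OMN array or DL array 1 (highest adjusted p = 0.206).

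GABA and glycine receptors carry fast inhibition. Limma called 3 of 18 GABA and glycine receptors higher in L5 (Gabra5, Glra1 and Glra2) and 0 lower, with 8 and 2 at an unadjusted p under 0.05, while 6 had all L5 arrays above all others (33.3%, against 6.2% of all genes). The median log2 difference was 0.332, and trend and robust variances gave 6 higher and 1 lower. Gabra5, a subunit of extrasynaptic GABA receptors, read 1700.2, 1319.8 and 1319 in L5, 535, 499 and 434 in OMN and 376, 392 and 454 in DL, about equal in the spared pools (1.66 ± 0.18, adjusted p = 0.00774). Glra1, the adult glycine receptor subunit, read 3864, 4058 and 3226 in L5, 245, 111 and 128 in OMN and 2769.9, 2631 and 3149.8 in DL. Its difference of 4.46 ± 0.27 from OMN had an adjusted p of 0.000615, while that of 0.38 ± 0.27 from DL did not pass the threshold (adjusted p = 0.512). Glra2, a fetal glycine receptor subunit, read 2789, 2089 and 1911 in L5, 328, 418 and 364 in OMN and 3562, 2645 and 3138 in DL. L5 was above OMN (2.55 ± 0.23) and overlapped DL, where the mean was higher (-0.47 ± 0.23, adjusted p = 0.32), so that its higher call against the mean of both lay with OMN. Gabra5 and Glra1 lost their calls on leaving out any 1 L5 array (highest adjusted p = 0.0821 and 0.0632). Glra2 lost the call on leaving out any 1 of the 9 arrays (highest adjusted p = 0.225).

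Calls among glutamate and acetylcholine receptors fell on few genes and were mostly lower. The called share was 13.6% of the glutamate and 13.3% of the acetylcholine receptor genes. It was 2.19% of all genes (1.07% higher and 1.12% lower). Of 22 glutamate receptor genes, 1 was higher and 2 were lower, with a median log2 difference of -0.061. Grin2a, an NMDA receptor subunit, read 521, 584 and 486 in L5, 374, 371 and 266 in OMN and 214, 197 and 153 in DL. Grik1, a kainate receptor subunit, read 181, 155 and 164 in L5, 303, 352 and 350.4 in OMN and 1161, 1283 and 756 in DL with its named probe set, while its other probe set had the opposite sign and was not called. Grm7, a presynaptic metabotropic receptor, was the other lower gene (-1.13 ± 0.19, adjusted p = 0.0364). Of its 3 probe sets 1 had the opposite sign, and with their mean its log2 difference was -0.38 and not called, while that of Grik1 was -0.79 and not called. Of 15 acetylcholine receptor genes, limma called 0 higher and 2 lower, with 2 and 3 at an unadjusted p under 0.05. Chrm1, a muscarinic receptor, read 8.2, 3.9 and 34.4 in L5, 507, 271 and 408 in OMN and 28.7, 19.5 and 30.2 in DL, high in OMN only. Chrnb4, a nicotinic subunit of autonomic neurons, was at or under the noise level on all L5 arrays and read 22.5, 10.9 and 15.2 in OMN and 44.7, 98.3 and 118 in DL. Grin2a and Grm7 lost their calls on leaving out any 1 L5 array or any 1 OMN array or DL array 1 or 3 (highest adjusted p = 0.159 and 0.182). Grik1 lost the call on leaving out any 1 L5 array (highest adjusted p = 0.0941). Chrnb4 lost the call on leaving out any 1 L5 array or any 1 OMN array or DL array 2 or 3 (highest adjusted p = 0.195). Chrm1 lost the call on leaving out L5 array 1 or 2 (highest adjusted p = 0.0941).

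Of the 20 lower genes of ranks 11 to 30, 6 were sorted as transcription regulators after they had been seen, against 0 of the 10 lower genes ranked above them. Isl1, a LIM homeobox factor required for motor neuron identity, read 495, 551 and 749.5 in L5, 2084, 2127 and 2176 in OMN and 3128, 2726 and 2299 in DL. It was bright in all pools, and the highest L5 value was 36.0% of the lowest spared one (-2.0 ± 0.20, adjusted p = 0.00681). Zfhx3, a homeobox and zinc finger factor, read 136, 240 and 157 in L5, 1097, 1401 and 1659 in OMN and 627, 618 and 479 in DL and was called with 5 of its 6 probe sets. Ebf1, a helix-loop-helix factor of differentiating neurons, read 20.3, 18.2 and 55.4 in L5, 176, 122 and 139.7 in OMN and 201, 189.6 and 325 in DL, with every DL array above every OMN array and both pools above L5 (-2.16 ± 0.23). For Rxrg, a retinoid X receptor, the values were 13.7, 26.7 and 21.3 in L5, 511, 269 and 396 in OMN and 96, 97.4 and 95 in DL, highest in OMN. Eya1, a coactivator of homeobox factors, read 24.4, 33.2 and 37.4 in L5, 458, 255 and 409 in OMN and 88.1, 73.9 and 137 in DL, and Mn1, a transcriptional coregulator, read 57.5, 77.2 and 62.2 in L5, 574, 495 and 578 in OMN and 190.3, 228 and 91.8 in DL. Both were brightest in OMN, with log2 differences from DL of -1.25 ± 0.25 and -1.11 ± 0.29 that had adjusted p-values of 0.0517 and 0.0983. Of the 3 Eya1 probe sets 1 was called and 1 had the opposite sign, and with their mean the difference was -1.21. Isl1 and Ebf1 lost their calls on leaving out L5 array 1 or 2 (highest adjusted p = 0.0742 and 0.0834). Zfhx3, Rxrg and Eya1 lost their calls on leaving out L5 array 1 or 3 (highest adjusted p = 0.0742, 0.0552 and 0.0773). Mn1 lost the call on leaving out any 1 L5 array or OMN array 1 (highest adjusted p = 0.113).

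Homeobox genes of the Hox clusters mark position along the body axis and were the list with the largest share called. Of 16 measured genes of groups 8 to 13, 10 were higher in L5 and 0 lower by limma, which matched the counts at an unadjusted p under 0.05 (10 and 0), with a median log2 difference of 1.98. The difference lay with OMN, from which the median log2 difference was 4.41, against 0.151 from DL. Hoxd8 read 884, 729 and 734 in L5, 17.9, 2.9 and 20.7 in OMN and 537, 608 and 519.9 in DL and Hoxc8 read 247, 317 and 429 in L5, 3.6, 6.3 and 1.2 in OMN and 94.2, 149 and 205 in DL. Both lay above DL on every L5 array, but by 0.48 ± 0.27 and 1.09 ± 0.26, which did not pass the threshold (adjusted p = 0.385 and 0.0802). In 4 of the 10, Hoxc8, Hoxd8, Hoxc9 and Hoxd9, all L5 arrays lay above all others, and in the rest L5 overlapped DL. The 10 became 6 when any 1 L5 array was left out and 8 without DL arrays 1 and 3. Limma called 3 of the 17 measured members of groups 1 to 7 higher and 0 lower (11 and 0 at an unadjusted p under 0.05). These 3, Hoxa5, Hoxb4 and Hoxc4, were under the noise level in OMN and overlapped DL. Neither of the 2 Hoxb4 probe sets was called when every probe set was tested, and 1 had the opposite sign. Hoxd8 lost the call on leaving out L5 array 1 or 2 (highest adjusted p = 0.056). Hoxc8 lost the call on leaving out L5 array 3 (highest adjusted p = 0.0547). Hoxa5 lost the call on leaving out any 1 L5 array (highest adjusted p = 0.0855). Hoxb4 lost the call on leaving out any 1 L5 array or OMN array 2 or 3 or DL array 2 or 3 (highest adjusted p = 0.208). Hoxc4 lost the call on leaving out any 1 L5 array or any 1 OMN array (highest adjusted p = 0.133).

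Other factors of motor columns and pools, 36 genes in all, gave 2 higher and 4 lower calls, against 1.07% and 1.12% of all genes. Nfib, a nuclear factor I gene, was higher in L5 at 2247, 2092 and 2579.5 in L5, 1500, 1659.6 and 1577 in OMN and 365, 530 and 636 in DL, with OMN near L5 and DL low. Tbx20, a T-box gene active in cranial motor nuclei, was at or under the noise level on all L5 arrays and read 309.8, 539 and 485 in OMN and 24.9, 3.8 and 4.7 in DL. Of 16 motor neuron identity genes, Mnx1 was higher and Isl1 and Ngfr were lower. Mnx1, which maintains spinal motor neuron fate, read 156, 147 and 80.9 in L5, 0.9, 1.4 and 3 in OMN and 89.7, 123 and 71.3 in DL, which set both spinal pools above OMN. Ngfr, the low-affinity neurotrophin receptor, read 113, 128 and 249 in L5, 252, 266 and 264 in OMN and 843, 947 and 1364 in DL, brightest in DL. Nfib lost the call on leaving out any 1 L5 array or any 1 OMN array (highest adjusted p = 0.125). Tbx20 lost the call on leaving out any 1 L5 array or OMN array 2 or 3 (highest adjusted p = 0.121). Mnx1 lost the call on leaving out any 1 L5 array or OMN array 1 or 2 (highest adjusted p = 0.117). Ngfr lost the call on leaving out any 1 L5 array (highest adjusted p = 0.112).

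**Figure D3:**
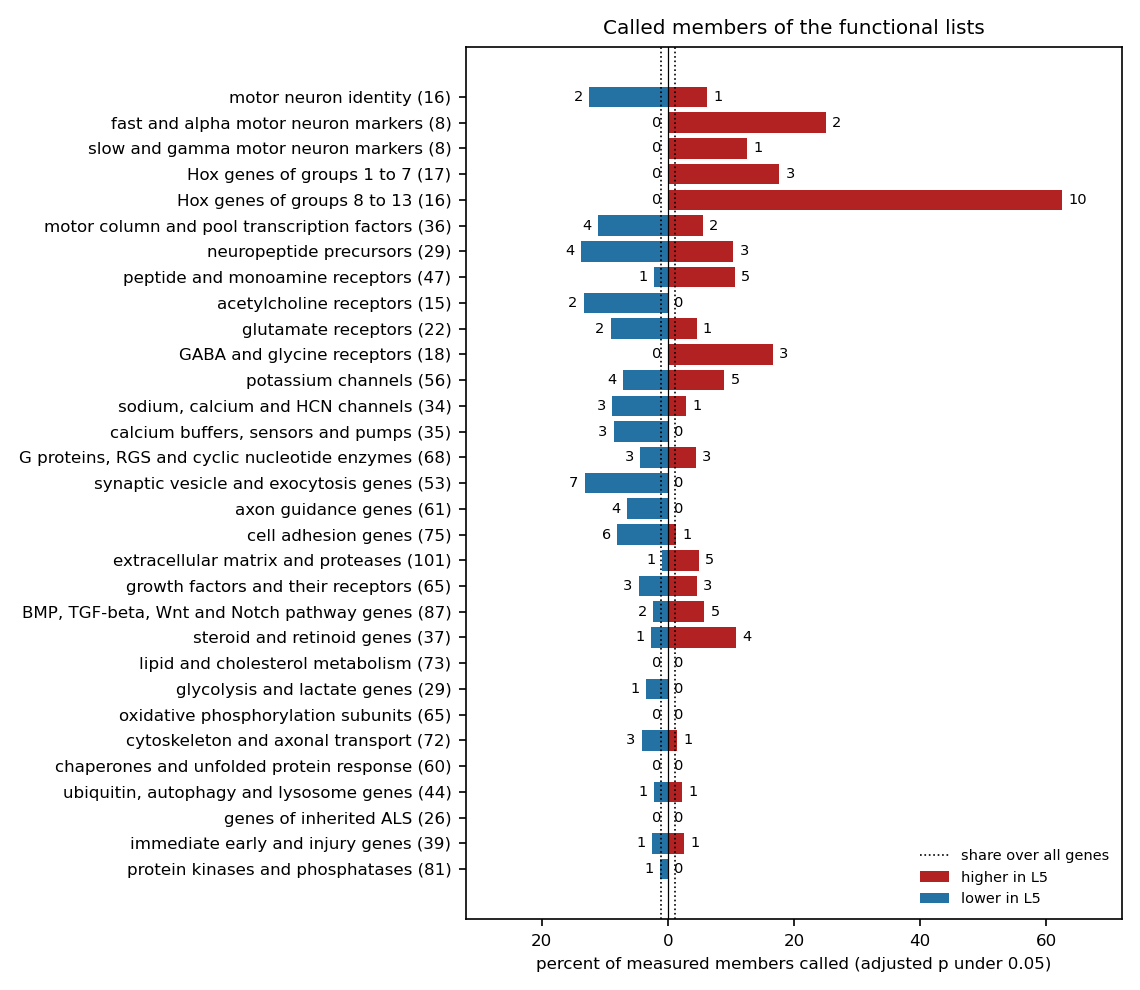
For each functional list, with the number of measured members in parentheses, the bars give the percent of members called higher (red, right) or lower (blue, left) in L5 than in the mean of both spared pools, and the digits give the numbers of genes. Dotted lines mark the share over all genes, 1.07% higher and 1.12% lower. The Hox genes of groups 8 to 13 reach 62.5%, and 4 lists, lipid metabolism, oxidative phosphorylation, chaperones and inherited ALS, have 0 calls.

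Subtype markers of motor neurons divide fast from slow cells, and alpha cells, which move muscle, from gamma cells. Of 8 fast and alpha markers, 2 were higher in L5, Mmp9 and Vipr2, and 0 were lower by limma (5 and 2 at an unadjusted p under 0.05). Mmp9, a matrix metalloproteinase known as a marker of fast motor neurons, read 771, 609 and 539 in L5, 95.1, 83.7 and 104 in OMN and 135, 19.1 and 50.3 in DL. The lowest L5 value was 4.0 times the highest spared one, and the log2 difference was 2.88 ± 0.33 (adjusted p = 0.00924), with both probe sets called. Of 8 slow and gamma markers, Wnt7a was higher (1.54 ± 0.25, adjusted p = 0.031) and 0 were lower by limma (3 and 1 at an unadjusted p under 0.05). Of its 3 probe sets, the other 2 had the opposite sign. Wnt7a lost the call on leaving out any 1 of the 9 arrays (highest adjusted p = 0.165). Mmp9 lost the call on leaving out any 1 L5 array (highest adjusted p = 0.0901).

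Genes of secreted signals and the matrix around cells were called in both directions. Of 101 extracellular matrix and protease genes, 5 were higher, among them Mmp9, Mmp17 and Reln, and 1, Igfbp5, was lower. With 1.07% of all genes called higher and 1.12% lower, 1 lower call in a list of this size is near the share of all genes. Reln, a large guidance protein of the matrix, read 1150, 1176 and 1234 in L5, 114, 119.9 and 134 in OMN and 734, 734 and 899 in DL, closer to L5 in DL and low in OMN (1.85 ± 0.15). Igfbp5, which binds insulin-like growth factors, read 763, 739.8 and 647 in L5, 2356, 1959.5 and 2278 in OMN and 3659.5, 3116 and 1601 in DL. Lower genes of ranks 11 to 30 also included proteins that act outside the cell. Tll1, a tolloid-like protease, read 48, 33.4 and 32.4 in L5, 455, 581 and 540.2 in OMN and 115, 87.6 and 71.1 in DL, with OMN far above both spinal pools. Sulf1, which removes sulfate from heparan chains, read 22.6, 54.2 and 40.9 in L5, 271, 189 and 169.7 in OMN and 400.3, 103 and 251 in DL. Coch, the matrix protein cochlin, read 114, 52.2 and 45.8 in L5, 139, 235 and 223 in OMN and 623, 333 and 546 in DL, and Nxph3, a ligand of neurexins, was at or under the noise level on every L5 array, at 9, 7.7 and 8.5 in L5, 82.5, 64.7 and 59.6 in OMN and 65.8, 68.2 and 160.4 in DL. Spared values of Nxph3 overlapped between the pools. Sulf1 was not called when every probe set was tested. Reln kept the call when any 1 array was left out. Igfbp5 lost the call on leaving out any 1 L5 array or OMN array 1 (highest adjusted p = 0.127). Tll1 lost the call on leaving out L5 array 2 or 3 (highest adjusted p = 0.0595). Sulf1 lost the call on leaving out any 1 L5 array or any 1 OMN array or DL array 1 or 3 (highest adjusted p = 0.195). Coch lost the call on leaving out any 1 L5 array or OMN array 2 or 3 or DL array 1 or 3 (highest adjusted p = 0.173). Nxph3 lost the call on leaving out any 1 L5 array or OMN array 1 or 2 (highest adjusted p = 0.117).

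The BMP, TGF-beta, Wnt and Notch list of 87 genes gave 5 higher and 2 lower calls, against 1.07% and 1.12% of all genes. Dlk1, a membrane protein related to Notch ligands that marks fast motor neurons, read 1596, 1853 and 2055 in L5, 273, 207 and 331 in OMN and 176, 323 and 382 in DL. The lowest L5 value was 4.18 times the highest spared one and both probe sets were called (2.67 ± 0.22, adjusted p = 0.00351). Dkk3, a secreted relative of the Dickkopf Wnt inhibitors, read 4563, 4784 and 3789.8 in L5, 990.1, 1167 and 1049.5 in OMN and 1263, 2789 and 1215 in DL. Hes5, a repressor downstream of Notch, was lower in L5 at 22.4, 38.5 and 45.1 in L5, 236, 273 and 169 in OMN and 90.7, 147 and 83.8 in DL. Among 65 growth factor and receptor genes, 3 were higher (Fgf10, Fgf13 and Kitl) and 3 lower (Ngfr, Igf1 and Ptprz1). Kitl, the ligand of the Kit receptor, read 1134, 935 and 736 in L5, 297, 209 and 339 in OMN and 518, 459.7 and 367 in DL, and Fgf13, which binds sodium channels inside the cell, read 2219.7, 2299 and 2278 in L5, 1874, 1914 and 1802 in OMN and 770.1, 729 and 752 in DL, where L5 and OMN were close and DL was low. Dlk1 kept the call when any 1 array was left out. Dkk3 lost the call on leaving out any 1 L5 array or OMN array 1 or 2 (highest adjusted p = 0.121). Hes5 lost the call on leaving out L5 array 1 or 2 or OMN array 2 (highest adjusted p = 0.117). Kitl lost the call on leaving out any 1 L5 array or OMN array 1 or 2 or DL array 1 or 3 (highest adjusted p = 0.173). Fgf13 lost the call on leaving out any 1 of the 9 arrays (highest adjusted p = 0.168).

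Retinoid and steroid genes gave 4 higher and 1 lower calls among 37, against 1.07% and 1.12% of all genes. Aldh1a2, which makes retinoic acid, read 2513, 2535 and 1806 in L5, 8.4, 34.5 and 5.3 in OMN and 256, 129.9 and 235 in DL, and Hsd17b2, a dehydrogenase that inactivates sex steroids, read 597, 721 and 800.4 in L5, 4.6, 10.1 and 76.7 in OMN and 0.7, 56 and 25.3 in DL. Dhrs3, which reduces retinal to retinol, and Crabp1, which binds retinoic acid, were also higher, the latter only against OMN, at 1529, 1149.7 and 1029 in L5, 57.4, 94.8 and 41.7 in OMN and 878, 1127 and 1936 in DL. The lower gene was Rxrg. Aldh1a2 kept the call when any 1 array was left out. Hsd17b2 lost the call on leaving out any 1 L5 array (highest adjusted p = 0.0742). Crabp1 lost the call on leaving out any 1 L5 array or any 1 OMN array or DL array 1 or 2 (highest adjusted p = 0.172).

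Calls among synaptic vesicle and exocytosis genes were all lower. Over all genes 1.07% were called higher and 1.12% lower, so that 0 higher calls in a list of this size is near the share of all genes. Of 53 measured, limma called 0 higher and 7 lower in L5 (Syt1, Syt5, Syt9, Doc2b, Synpr, Pclo and Cadps2). At an unadjusted p under 0.05 there were 7 higher and 15 lower, and the median log2 difference was -0.076. Syt1, the calcium sensor of fast release, read 359.6, 569 and 397 in L5, 2589, 1929.8 and 2154 in OMN and 3931, 3048 and 3155 in DL, and the highest L5 value was 29.5% of the lowest spared one (-2.61 ± 0.22, adjusted p = 0.00351). Synpr, a vesicle membrane protein, read 13.4, 44.5 and 34.7 in L5, 166, 157 and 121 in OMN and 687, 431 and 624 in DL. Syt9, another calcium sensor, read 62, 44.2 and 40.7 in L5, 210.4, 181 and 177 in OMN and 422, 287 and 177 in DL, and Doc2b, a sensor of spontaneous release, read 22.6, 70.1 and 40 in L5, 326, 304 and 254 in OMN and 57.3, 162 and 123 in DL. L5 overlapped DL in Doc2b and lay below both pools in the other 3 genes. With trend and robust variances, 5 of the list were higher and 10 lower. Syt1 kept the call when any 1 array was left out. Synpr lost the call on leaving out L5 array 3 (highest adjusted p = 0.0567). Syt9 lost the call on leaving out any 1 L5 array (highest adjusted p = 0.0821). Doc2b lost the call on leaving out any 1 L5 array or OMN array 3 or DL array 3 (highest adjusted p = 0.15).

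Axon guidance genes, which steer growing axons and mark mature synapses, gave 0 higher and 4 lower calls among 61 by limma (6 and 17 at an unadjusted p under 0.05). The shares over all genes were 1.07% higher and 1.12% lower, so that 0 higher calls here is near the share of all genes. Trend and robust variances gave 3 higher and 9 lower, and at most 1 was higher with 1 array left out. Sema3e, a secreted semaphorin that acts through plexin D1, was called with all 4 probe sets, at 49.7, 112 and 72.4 in L5, 1693, 1269 and 1668 in OMN and 2073, 1989 and 2183 in DL. Efnb3 and Efnb2, membrane-bound ephrins, had log2 differences of -1.76 ± 0.24 and -1.18 ± 0.20. Efnb3 read 62, 54.9 and 100.3 in L5, 266, 284 and 331 in OMN and 191, 376 and 248 in DL, with both spared pools above every L5 array. Of 75 adhesion genes, 1, Cdh6, was higher and 6 were lower. Cdh6, a cadherin that sorts neurons into nuclei, read 522, 345 and 471 in L5, 82.6, 121 and 139.5 in OMN and 176, 144 and 172 in DL. Rtn4rl1, a Nogo receptor relative that restrains axon growth, was lower at 93.5, 98.2 and 93 in L5, 207, 287 and 201 in OMN and 1011, 884 and 901 in DL, with DL well above OMN. Sema3e and Rtn4rl1 kept the call when any 1 array was left out. Efnb2 lost the call on leaving out any 1 L5 array or any 1 OMN array or DL array 1 or 3 (highest adjusted p = 0.193). Efnb3 lost the call on leaving out any 1 L5 array or any 1 OMN array (highest adjusted p = 0.115). Cdh6 lost the call on leaving out any 1 L5 array (highest adjusted p = 0.113).

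Calcium-binding genes gave 0 higher and 3 lower calls among 35 by limma (11 and 6 at an unadjusted p under 0.05). Their median log2 difference was 0.256, and trend and robust variances gave 8 higher and 5 lower. With 1.07% of all genes called higher and 1.12% lower, 0 higher calls in a list of this size is near the share of all genes. Necab1, an EF-hand protein of neurons, read 10, 17.2 and 37.6 in L5, 146, 93.9 and 135 in OMN and 232, 90.9 and 210.4 in DL, lower in L5 than in both pools (-2.15 ± 0.27). Pvalb, a calcium buffer, read 541, 746 and 905 in L5, 5169.6, 5394 and 5099.7 in OMN and 694, 846 and 688 in DL, bright in OMN and alike in L5 and DL. Among 68 genes of G proteins, RGS proteins and cyclic nucleotide enzymes, 3 were higher and 3 lower. Gna14, a Gq-class alpha subunit, was higher at 960, 972 and 986 in L5, 502, 348 and 301 in OMN and 136, 199 and 289 in DL, and Rgs10, a regulator that ends G protein signals, was lower at 177, 222 and 154 in L5, 372, 508 and 475 in OMN and 1221, 1036 and 1099 in DL. Necab1 and Pvalb lost their calls on leaving out any 1 L5 array or OMN array 1 or 2 (highest adjusted p = 0.0773 and 0.119). Gna14 lost the call on leaving out any 1 L5 array or OMN array 2 or 3 (highest adjusted p = 0.162). Rgs10 lost the call on leaving out any 1 L5 array (highest adjusted p = 0.0751).

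The remaining genes of ranks 11 to 30 belong to other functions. Mgam, the brush-border maltase-glucoamylase, read 128, 167 and 184 in L5, 12.2, 16.1 and 4.4 in OMN and 5.3, 0.3 and 1.2 in DL. Every spared array was under the noise level, so that Mgam was at least 8.64-fold higher in L5 than in either pool. Adarb2, an RNA editing relative without catalytic activity, read 121, 173 and 114 in L5, 12.5, 14.7 and 1.8 in OMN and 2.3, 13.6 and 7.1 in DL, likewise under the noise level on all spared arrays and at least 7.3-fold higher in L5. Tnfsf13b, the B cell activating cytokine BAFF, read 193, 144 and 161 in L5, 19, 84 and 26.1 in OMN and 16.4, 14.9 and 2 in DL. Dnah2, an axonemal dynein heavy chain, read 139, 115 and 106 in L5, 13.2, 22.6 and 14.5 in OMN and 3.8, 19.1 and 3.7 in DL, low in both pools. Slc9a9, an endosomal sodium and proton exchanger, read 938, 635 and 1046 in L5, 217, 256 and 214 in OMN and 134, 44.1 and 265 in DL. Mgam and Adarb2 kept the call when any 1 array was left out. Tnfsf13b lost the call on leaving out any 1 L5 array or OMN array 3 (highest adjusted p = 0.137). Dnah2 lost the call on leaving out L5 array 3 (highest adjusted p = 0.0547). Slc9a9 lost the call on leaving out any 1 L5 array or OMN array 1 or 3 or DL array 1 (highest adjusted p = 0.172). Of the 4 Slc9a9 probe sets 1 was called.

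In the lower direction, Slc6a7, a proline transporter of neurons, read 26.2, 229 and 70.8 in L5, 548, 1006 and 985 in OMN and 253, 457 and 291 in DL. Wdr48, a cofactor of deubiquitinases, read 201, 247 and 267 in L5, 1485, 1596 and 592 in OMN and 1984, 2133 and 1194 in DL on its named probe set, while another of its 4 had the opposite sign. Rpp25, a subunit of ribonuclease P, read 45, 18.4 and 33.4 in L5, 247, 317 and 308 in OMN and 372, 74.7 and 188 in DL. All L5 arrays lay below all others in these genes, but the lowest spared arrays came near L5 for Slc6a7 and Rpp25. Cpne4, a calcium-dependent membrane-binding protein, did not exceed the noise level on any L5 array, at 1.1, 2.7 and 3.1 in L5, 90.8, 48.3 and 38.9 in OMN and 169, 68.2 and 73.5 in DL, and 1 of its 2 probe sets had the opposite sign. Thsd7a, a membrane protein with thrombospondin repeats, read 199, 135 and 167 in L5, 453, 460.3 and 630.4 in OMN and 1009.9, 641 and 1266 in DL. Tent5a, a poly(A) polymerase, read 61.1, 61.3 and 22.5 in L5, 90.5, 62.4 and 78.9 in OMN and 539, 922 and 504 in DL, a difference from DL (-3.40 ± 0.31) far more than from OMN (-0.60 ± 0.31, adjusted p = 0.403). Prr15, a proline-rich protein, and Kantr, a long noncoding RNA, had log2 differences of -2.17 ± 0.27 and -1.95 ± 0.32. Of the 3 Prr15 probe sets 1 had the opposite sign, and with their mean its difference was -0.71 and not called. Slc6a7 lost the call on leaving out L5 array 1 or 3 or OMN array 1 (highest adjusted p = 0.11). Wdr48 lost the call on leaving out L5 array 1 or 2 (highest adjusted p = 0.0955). Rpp25 lost the call on leaving out any 1 L5 array or OMN array 3 or DL array 3 (highest adjusted p = 0.145). Cpne4 and Prr15 lost their calls on leaving out L5 array 2 or 3 (highest adjusted p = 0.0657 and 0.112). Thsd7a lost the call on leaving out any 1 L5 array (highest adjusted p = 0.0694). Tent5a lost the call on leaving out any 1 L5 array or OMN array 1 (highest adjusted p = 0.112). Kantr lost the call on leaving out any 1 L5 array or OMN array 1 or DL array 1 or 3 (highest adjusted p = 0.179).

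Oxidative phosphorylation genes, which make ATP in mitochondria, mostly lay above the spared pools in L5 by a small amount, and 0 of them passed the test. Of 65 measured genes, 0 were called by limma, against 2.19% of all genes, with 29 higher and 1 lower at an unadjusted p under 0.05. The median log2 difference was 0.355, 59 of the 65 differences were above 0, and in 43 (66.2%) all L5 arrays lay above all others, against 6.2% of all genes. Atp5d and Ndufs7, subunits of ATP synthase and complex I, had log2 differences of 0.59 ± 0.15 and 0.65 ± 0.17 with adjusted p-values of 0.109 and 0.113. Atp5d read 8185, 8403 and 9774 in L5, 5666, 5745 and 5676 in OMN and 5979.9, 5898 and 5912 in DL. Ndufs7 read 6069, 6261 and 7656 in L5, 3595, 4608 and 3945 in OMN and 4239, 5027 and 4073 in DL. In both, L5 array 3 was the brightest and every L5 array lay above all others. Ppargc1a, a coactivator of mitochondrial genes on the same list, had a negative difference (-0.83 ± 0.24, adjusted p = 0.147). The list is bright, and bright genes leaned the same way. Among 1272 other genes of the same intensity range, 1740 to 9460, the median was 0.118 and 20.7% had all L5 arrays on top. The size depended on the scaling of the arrays. After quantile normalization the median of the list fell to 0.127, 17 genes (26.2%) had all L5 arrays above the others and 3 all below, against 5.23% of all genes above. With arrays centred on their medians the values were 0.292 and 22 (33.8%, against 3.9% of all genes). Genes of the same intensity range then had medians of 0.004 and 0.056 under these scalings, with 10.1% above in each. With trend and robust variances 32 of the 65 were called, and without L5 array 3 the median was 0.255.

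**Figure D4:**
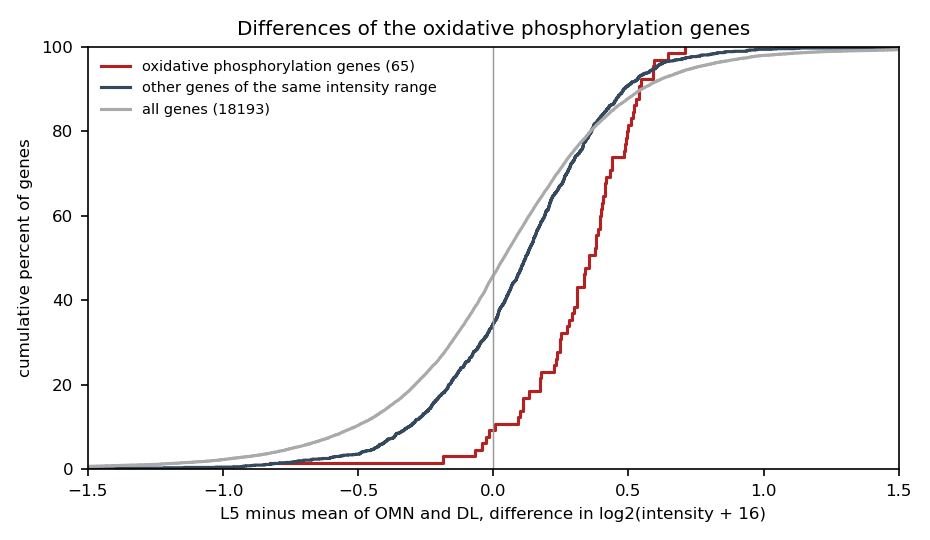
Cumulative percent of genes against the difference in log2(intensity + 16) between L5 and the mean of OMN and DL, for the 65 oxidative phosphorylation genes (red), the 1272 other genes of the same intensity range (dark) and all 18193 genes (grey). The red curve lies to the right over most of its length, with a median of 0.355 against 0.118 and 0.038, and these values are as deposited, before quantile normalization.

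Other metabolic and stress lists held few or 0 calls. Since 1.07% of all genes were called higher and 1.12% lower, 0 calls in lists of this size is near the share of all genes. Of 29 glycolysis and lactate genes, limma called 0 higher and 1, Slc16a3, lower, with 8 and 1 at an unadjusted p under 0.05. Among 73 lipid and cholesterol genes it called 0 (8 higher and 11 lower unadjusted), and among 60 chaperone and unfolded protein response genes also 0 (12 and 4 unadjusted). With trend and robust variances 5 glycolysis genes were higher and 1 lower, 4 lipid genes higher and 4 lower, and 6 chaperone genes higher and 0 lower. Slc16a3, a lactate exporter, read 2.2, 35.2 and 2.6 in L5, 22.1, 46.6 and 62.3 in OMN and 96.8, 262 and 145 in DL. The 26 measured genes of inherited ALS gave 0 calls by limma (7 higher and 0 lower unadjusted), a median log2 difference of 0.241 and 7 members with all L5 arrays above the others (26.9%, against 6.2% of all genes). With trend and robust variances 6 of them were called higher and 0 lower. The smallest adjusted p among them was 0.0822, for Nefh, the heavy neurofilament, which read 7613, 7520 and 8704 in L5, 5051, 5443 and 5343 in OMN and 4629, 4961 and 4449 in DL (0.67 ± 0.16). In the ubiquitin, autophagy and lysosome list of 44 genes, Fbxo2, a ubiquitin ligase subunit for glycoproteins, was higher (0.94 ± 0.15, adjusted p = 0.0313). Grn, the progranulin gene, was lower (-0.92 ± 0.18, adjusted p = 0.0498), but none of its 3 probe sets was called when every probe set was tested. Fbxo2 and Grn lost their calls on leaving out any 1 of the 9 arrays (highest adjusted p = 0.176 and 0.229). Slc16a3 lost the call on leaving out any 1 L5 array or OMN array 1 (highest adjusted p = 0.123).

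Muscle genes appeared among the higher ranks. Myh1, a fast skeletal myosin heavy chain, read 83.5, 384 and 97.1 in L5, 3.9, 1 and 6 in OMN and 18.4, 2 and 2.1 in DL, and Csrp3, a muscle LIM protein, read 57.7, 175 and 130.3 in L5, 14.7, 3.1 and 4.7 in OMN and 5.5, 49.2 and 1.7 in DL. L5 array 2 was the highest for Myh1 by a wide margin, and 1 of the 3 Myh1 probe sets had the opposite sign. A list of 28 skeletal muscle genes, made after these values were seen, had 16 members highest on L5 array 2, and its summed intensity was 2910 there, 905 and 1372 on L5 arrays 1 and 3 and 516 to 1024 on the spared arrays. Tnnt3, fast troponin T, read 3.3, 215 and 4.8 in L5, and Myl1, a myosin light chain, read 1.1, 214 and 3.4. Of the 28, limma called 3 higher (Myh1, Csrp3 and Sln) and 0 lower (5 and 0 unadjusted). Myh1 lost the call on leaving out any 1 L5 array or any 1 OMN array or DL array 3 (highest adjusted p = 0.118). Csrp3 lost the call on leaving out any 1 L5 array or OMN array 2 or 3 or DL array 1 or 3 (highest adjusted p = 0.214). The part of muscle RNA in these values was not tested.

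Among markers of other cells few genes were called. None of the markers of astrocytes (15), oligodendrocytes (15), microglia (13), vessels (14), meninges (9), excitatory (7) or monoamine neurons (9), ependyma (6) or blood (3) was called by limma. With 2.19% of all genes called, 0 calls in lists of this size is near the share of all genes. At an unadjusted p under 0.05, 5 astrocyte markers were higher, as were 1 oligodendrocyte, 2 microglial and 3 meningeal ones, and 4 oligodendrocyte, 1 microglial, 4 vascular and 3 monoamine neuron markers were lower. A test against the mean of both spared pools can miss a marker whose L5 level lies between them. For the astrocyte marker Gfap, every L5 array (233.3 to 392) exceeded every OMN array (12.2 to 22.7). Each of these L5 values was nevertheless below all DL values (1073.5 to 2332.6). The log2 difference from the mean of both pools was 0.58 (limma adjusted p = 0.304), so a marker without a call is not thereby alike across pools. Some summed levels also stood apart. The astrocyte sum was highest in L5, where it ranged from 33540.1 to 37358, and spanned 30658 to 30847 for OMN and 27496 to 30829 for DL. The vascular sum was lowest in L5, at 2848 to 3596, against 3741 to 4207 in OMN and 4547 to 4973 in DL. The oligodendrocyte sum was 18757 to 19761 in L5, between 15441 to 17054 in OMN and 24890.3 to 27084 in DL, and the excitatory sum of 462 to 544 lay between 1063 to 1330.3 in OMN and 169 to 321 in DL. Their part in the results was not tested. Pmp22, a protein of peripheral myelin, was the 1 called of 6 Schwann and sensory markers, at 1863, 2202 and 2115 in L5, 94, 143 and 167 in OMN and 826, 720.4 and 1077 in DL, and 3 of the 6 did not exceed the noise level on any array. Pou4f1, a factor of sensory neurons and the other bright member, read 67.3, 80.8 and 39.4 in L5, 346, 427 and 322 in OMN and 187, 50.9 and 317 in DL, below OMN in L5, overlapping DL and not called (-1.71 ± 0.47, adjusted p = 0.127), and the list median was -0.16. Pmp22 exceeded both pools on every L5 array (2.53 ± 0.19, adjusted p = 0.00286). Among 8 inhibitory interneuron markers, the GABA synthases Gad1 and Gad2 fell below the spared pools. Slc6a5, the glycine transporter, was called higher, by 3.93 ± 0.31 from OMN but -0.30 ± 0.31 from DL. Slc32a1, another marker on the list, was not called and read 805.6 to 1261 in L5. That lay between OMN (390.2 to 620.2) and DL (1584.1 to 2226.6). Gad2 read 288, 267 and 251 in L5, 1209, 1443 and 1285 in OMN and 2725, 2213 and 2083 in DL and Slc6a5 read 457, 558 and 637 in L5, 17.4, 39.2 and 11.1 in OMN and 440.4, 749.5 and 931 in DL. Summed over these 8, L5 arrays gave 1656 to 2302, OMN arrays 1926 to 2709.5 and DL arrays 5073 to 5904. Their part in the lower synaptic genes was not tested. In such samples fewer cells of a type and less RNA per cell cannot be told apart. Pmp22 and Gad2 kept the call when any 1 array was left out. Gad1 lost the call on leaving out any 1 L5 array or any 1 OMN array (highest adjusted p = 0.122). Slc6a5 lost the call on leaving out any 1 L5 array or OMN array 1 (highest adjusted p = 0.142).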

How the data were processed

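Laser-captured motor neurons of 3 pools (L5, OMN and DL, 3 arrays each) were measured on Affymetrix Mouse Genome 430 2.0 arrays after amplification of at least 1.5 ng of RNA, per the labels' protocols. The authors deposited linear intensity values for 45101 probe sets, with a mean of 250 on every array after removal of 2% of values at each end. No source used here names their software. Such scaling hides changes in total RNA, and 3 arrays a pool limit precision.

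Of 45037 probe sets that were not controls, 34945 named 1 gene, 932 several and 9160 none in the platform annotation. Each of 18193 genes took the probe set with the highest mean of log2(intensity + 16). The noise level of 18.3 is the highest value of 27 unspiked bacterial control probe sets. Lower bounds of folds use intensities raised to it.

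The fit of all arrays used limma 3.58.1 (functions lmFit and eBayes, under R 4.3.3), with pool as factor and replicate number as a block because the protocol takes every pool from the same animals. Whether equal numbers mark one animal is not in the labels. P-values are two-sided, Benjamini-Hochberg adjusted over 18193 genes, threshold 0.05. Values after ± are standard errors of log2 differences. Replicates are separate samples per the titles. On simulated arrays, 37.3%, 77.6% and 95.5% of planted log2 differences of 1, 2 and 3 were recovered, with 2.1% false calls. Differences were planted in brighter genes only, with independent normal noise of equal spread in all pools and no effect of animal. The measured median log2 standard deviation of 7120 bright genes was 0.204 in L5, 0.171 in OMN and 0.294 in DL. These simulated rates therefore need not hold for the 398 calls.

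Chosen for naming were called genes with separate arrays and no provisional symbol, ranks 1 to 10 briefly and 11 to 30 in full. To these came up to 4 called members of each of 31 functional lists, and markers of other cells from 11 lists. Not every list or list member so chosen is described. Other called list members and the muscle list were named after their values were seen. The members and lists were chosen with earlier results of these data known. Promoter sequences come from the RefSeq table. No protein sequences were used here.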

Additional observations from a re-analysis of the deposited data

How the results depend on the processing

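With 194 genes higher and 204 lower as reported, a pseudocount of 1 gave 29 and 23 and one of 64 gave 407 and 384. Trend and robust variances gave 611 and 462, a Gapdh ratio covariate 79 and 74, and OMN with DL as 1 group without the replicate block 108 and 139. Without DL arrays 1 and 3, an alternative chosen after seeing the data in which the lone DL array is assumed to vary like the other pools, 52 and 35 were called. Leaving out 1 array gave 19 to 144 higher and 15 to 165 lower. Quantile normalization, median centring, a filter on low values, the mean of all probe sets and array weights kept both counts within 1.5 times. The mean of all probe sets shared only 299 of the 398 genes, however, and the other settings of this group 368 to 398. The share of higher calls went from 48.7% to 39.2% with median centring. Without the replicate block, 336 and 357 genes were called, 378 of them shared. Deviations from pool means of arrays with equal numbers correlated between -0.073 and 0.062 over 7120 genes, and not every array correlated best with its own number. Noise between separately captured samples can hide a small effect of animal, so these values cannot tell whether equal numbers mark one animal. Among the 121 called genes chosen by the naming rule, not all of which are described here, 15 kept the call under each of 20 other settings. None reversed, and 23 kept the call under every omission of 1 array. The value of Slc5a7, L5 minus mean of OMN and DL, which was not called, reversed to -0.0429 without L5 array 1 and was 0.276 without L5 array 3. The cause of these changes was not tested, except that omissions leave fewer samples. Dim genes limit the lower bounds, which rest on the noise level.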

Other observations

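Some called genes outside the lists fell into small families, picked here after their values were seen. Each family was formed around genes already called, so its counts describe the choice and are not a result about the family. Over all genes 1.07% were called higher and 1.12% lower. Rspo2, a secreted R-spondin that strengthens Wnt signals, and its receptors Lgr5 and Lgr6 were higher in L5. Lgr5 read 221, 249 and 168 in L5, 102, 65.1 and 50.7 in OMN and 26.5, 18.7 and 31.1 in DL, and Lgr6 read 156, 94.8 and 118 in L5, 81.9, 35 and 34.4 in OMN and 6.4, 14 and 19.1 in DL. Rspo2 read 214, 208 and 249 in L5, 92.2, 152 and 105 in OMN and 44.7, 72.4 and 83.9 in DL. All L5 arrays lay above all others in each of them. They were 1 of 4 R-spondins and 2 of 3 Lgr receptors measured. Sostdc1, a secreted inhibitor of BMP and Wnt signals, was higher too, at 593, 368 and 278 in L5, 225, 197 and 225 in OMN and 119, 86.8 and 67.5 in DL. Each of these calls was lost on leaving out some single arrays, with highest adjusted p-values of 0.175, 0.0901, 0.175 and 0.139.

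Of 7 P2X receptors, which are cation channels opened by ATP and were picked in the same way, P2rx5 and P2rx6 were higher and 0 were lower. P2rx6 read 289, 289 and 248 in L5, 59, 33.8 and 85.3 in OMN and 44.8, 53.2 and 72.3 in DL, low in both spared pools, and P2rx5 read 329, 395 and 366 in L5, 94.8, 107 and 113 in OMN and 71.1, 218 and 218 in DL. Both measured genes of the Lypd6 pair, membrane-anchored proteins that act on nicotinic receptors, were higher, and Lypd6 read 1179.6, 1013 and 1037 in L5, 295, 453 and 406 in OMN and 181, 159.9 and 147 in DL. Their highest adjusted p with 1 array left out was 0.0911 for P2rx6, 0.221 for P2rx5, 0.0726 for Lypd6 and 0.192 for Lypd6b.

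Lower in L5 were 2 of 6 Celf genes, RNA-binding proteins that regulate splicing, 2 of 3 inhibitors of protein kinase A, Pkia and Pkig, and 2 of 5 Bex genes. Celf6 read 1.4, 13 and 4.2 in L5, 124, 115 and 62.9 in OMN and 45.1, 53.9 and 31.8 in DL, with no L5 array over the noise level, and Celf4 read 748, 826 and 943 in L5, 2328, 2511 and 1727 in OMN and 2515, 2791 and 2539 in DL. Pkia read 961, 911 and 1028 in L5, 2163, 2394 and 2468 in OMN and 2137, 1981 and 1955 in DL, a narrow range in each pool. The highest adjusted p with 1 array left out was 0.0726 for Celf6, 0.112 for Celf4, 0.128 for Pkia, 0.213 for Pkig, 0.227 for Bex1 and 0.139 for Bex4. Pkig and Bex1 lost the call on leaving out any 1 of the 9 arrays, and Bex4 with 6 of them.

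In 13 higher and 7 lower genes the L5 mean lay between those of OMN and DL. Among 10092 probe sets with no gene symbol or several, fitted with all 45037, 13 were higher and 26 lower in L5 (0.386%).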
